A study of Mus musculus with 3 samples.

Results

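Lysosomal hydrolases and lysosomal membrane proteins were followed across 3 hippocampal RNA-seq libraries through 45 named genes, matched by gene name among the 54532 genes of the deposited table. All 45 were found, each as a single protein-coding gene. The libraries came from 10-month-old mice on a C57BL/6 background, with 1 library per genotype: wild type (WT), PS19, and PS19 Zbp1+/-, heterozygous for Zbp1 by its label. PS19 mice carry a human tau transgene under the mouse Prnp promoter, which is active mainly in neurons, and Zbp1 encodes a sensor of Z-form nucleic acids. Both non-WT groups carry the transgene, so no library shows the Zbp1 allele without it. The labels do not say whether a library holds 1 animal or a pool. With 1 library per genotype no test between genotypes is possible, and each value below describes these libraries.

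Lysosomes are acidic organelles that break down proteins, glycans and lipids delivered by endocytosis, phagocytosis and autophagy. Soluble hydrolases reach them mostly through the mannose 6-phosphate pathway, membrane glycoproteins such as LAMP1 line their wall, and a proton pump keeps them acidic. Every brain cell has lysosomes, but microglia, the brain's resident macrophages, are rich in some members. Ctss, Ctsz, Cd68 and Laptm5 were taken as the 4 myeloid-enriched members and the other 41 as broadly expressed ones.

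The deposited levels are FPKM, a read density that corrects for the length of a gene and the size of a library. Whole reads recovered from them summed to 16400328 to 17109734 per library. The members took 0.652% of all reads in WT (exact 95% binomial interval 0.648% to 0.656%), 0.827% in PS19 (0.823% to 0.831%) and 0.570% in PS19 Zbp1+/- (0.567% to 0.574%). All intervals given here describe counting error alone. Amplified copies of a molecule were not told apart, so the intervals may be too narrow even for that error. The lowest count of any member in any library was 62 reads, and 43 members had an FPKM of at least 1 in every library. Zbp1 itself had 5 reads in WT and 91 in PS19, while PS19 Zbp1+/- had 0 (FPKM 0.0821, 1.49 and 0), and a count of 0 does not tell a heterozygous from a complete loss. Xist had 11062 and 13350 reads in WT and PS19 and 0 in PS19 Zbp1+/-, which alone held Y-linked reads, so sex and genotype cannot be told apart in either comparison of that library. PS19 Zbp1+/- also held reads for fewer genes, 21408 against 24741 in WT and 25397 in PS19. The GC content of transcripts moved with its differences too: the median difference of PS19 Zbp1+/- minus PS19 was -0.14 over the genes lowest in GC and 0.25 over those highest in GC. In the text that follows, 3 values in a row are the FPKM of WT, PS19 and PS19 Zbp1+/-, in that order, unless another unit is named.

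Most of the 45 members were highest in the PS19 library. PS19 had the highest FPKM of the 3 libraries for 35 of the 45 members, PS19 Zbp1+/- for 7 and WT for 3. This order was not counted over all tested genes. Differences are given on the scale of log2(FPKM + 1), which understates changes of weakly expressed genes, over protein-coding genes that reached an FPKM of 1 in one or both libraries. All 45 members passed that filter in each comparison. Between PS19 and WT the median difference of the members was 0.44, against -0.03 over all 12703 genes tested. Above 0 lay 39 members, or 86.7%, against 46.3% of all tested genes. At least 2-fold higher in PS19 were 5 members, where 2.2% of all tested genes were, and 0 members were at least 2-fold lower, against 0.291% of all. At 1.5-fold the counts were 13 members higher (background 6.34%) and 0 lower (2.71%). Of the 45 read ratios, 33 had a counting interval wholly above 1, 4 wholly below it, and 8 spanned it. Interval counts, here and below, were made for the members only.

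The PS19 Zbp1+/- library lay below PS19 for most members, and on both sides of WT. Between PS19 Zbp1+/- and PS19 the median difference of the members was -0.51, against 0.04 over 12772 genes. The 2-fold limit was passed downward by 11 members (background 5.16%) and upward by 0 (2%). At 1.5-fold, 18 members were lower (12.1%) and 2 higher (9.37%). The counting interval of the read ratio lay wholly below 1 for 35 members and wholly above it for 5. Between PS19 Zbp1+/- and WT the median was -0.21, against 0.01 over 12436 genes, with 1 member past the 2-fold limit downward (2.28%) and 0 upward (1.07%). At 1.5-fold, 6 of the 45 were lower (7.12%) and 4 higher (6.71%), a split of 9 and 2 when libraries were scaled by total reads. Against WT, per implied library size, 24 members had an interval wholly below 1, 15 wholly above it, and 6 spanned it. The first 2 comparisons share the PS19 library and the last shares a library with each of them, so their values are set side by side and not counted as separate evidence.

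**Figure D1:**
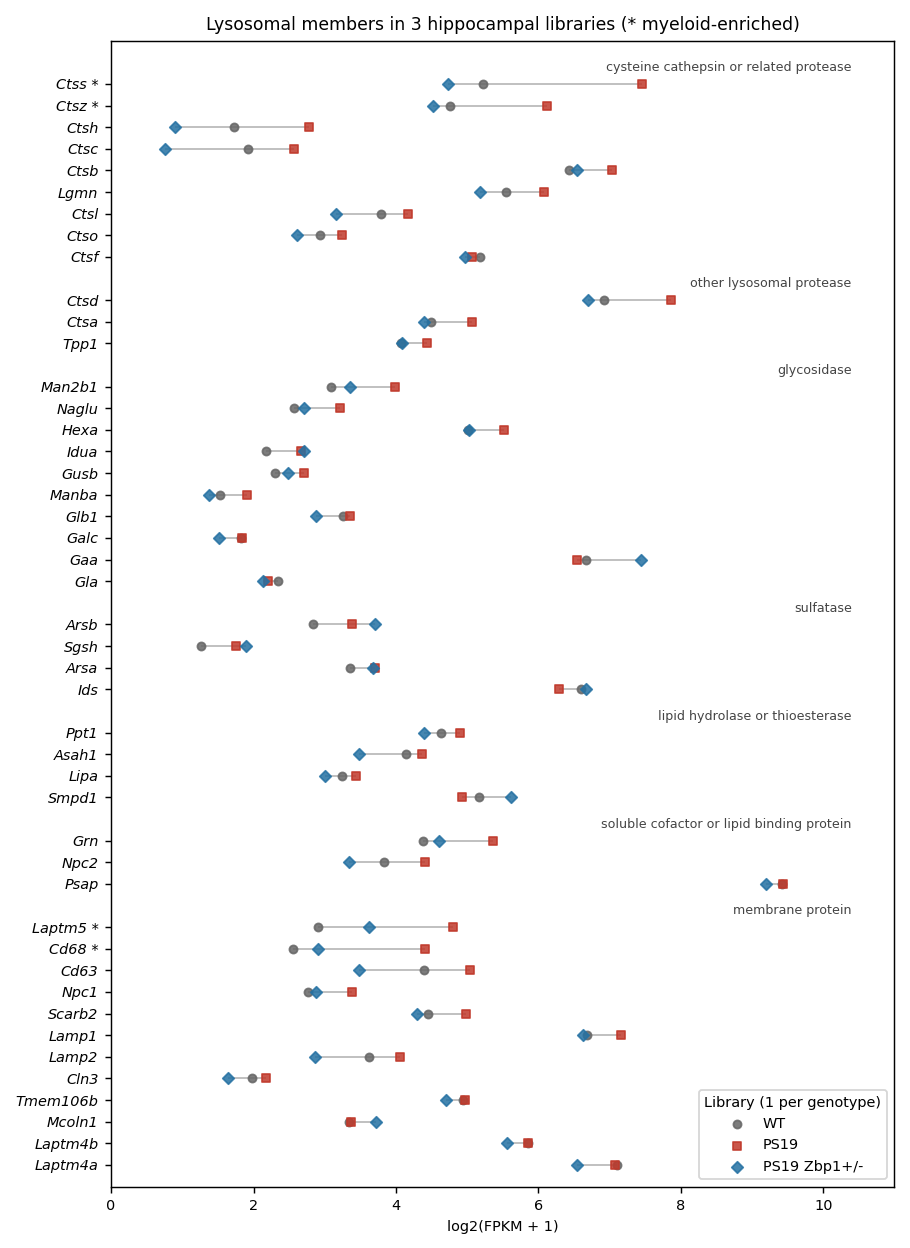
Level of each of the 45 lysosomal members in the 3 libraries, as log2(FPKM + 1), grouped by role and ordered within each role by the difference between PS19 and WT. The PS19 square is the rightmost mark for 35 members, and the blue diamond of PS19 Zbp1+/- is rightmost for 7, among them Gaa, Smpd1 and Arsb.

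The cysteine cathepsins, papain-like proteases that degrade proteins in the lysosome, showed the widest range. Ctss, which works also at neutral pH and trims the invariant chain in antigen-presenting cells, stood at 36.2, 175 and 25.5. It was the tenth most abundant member in WT and the third in PS19. The read ratio of PS19 to WT was 4.84 (95% interval 4.49 to 5.21), and that of PS19 Zbp1+/- to PS19 was 0.145 (0.133 to 0.159). On the log2 scale these differences, 2.24 and -2.73, were the largest of any member in either comparison. Ctsz, a carboxypeptidase, stood at 26, 68.9 and 22.1, with a PS19 to WT ratio of 2.65 (2.42 to 2.90). In both genes PS19 stood clear of the other libraries, which lay closer to each other than to PS19. Ctsz lies on chromosome 2 (174427493 to 174439039, minus strand) and Ctss on chromosome 3 (95526786 to 95556403, plus strand), in GRCm38 coordinates as the table gives them.

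A pair of weakly expressed cathepsins ended below WT. Ctsc, which activates granule serine proteases, had FPKM values of 2.77, 4.91 and 0.685, from 278, 493 and 63 reads. Ctsh, an aminopeptidase, had 2.32, 5.86 and 0.871, from 180, 456 and 62 reads. Both were thus lowest in PS19 Zbp1+/-, with read ratios over WT of 0.247 for Ctsc (0.185 to 0.326) and 0.375 for Ctsh (0.277 to 0.504). Ctsc was the member furthest below WT there, at a difference of -1.16. Over the whole table the PS19 Zbp1+/- library held 882 genes with a single read, against 2467 and 2465 in WT and PS19, and the part of that in these low values was not tested.

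The other genes of this class differed less between PS19 and WT. Ctsb, a major cysteine protease of most cells (chromosome 14, 63122462 to 63145923), had FPKM values of 85, 131 and 92.7, with a PS19 to WT ratio of 1.54 (1.5 to 1.58). Lgmn, the asparaginyl endopeptidase legumain, which processes other cathepsins and can cleave tau, had 45.8, 66.8 and 35.2. Ctsl, a broadly expressed endopeptidase, had 12.9, 17.1 and 7.89, so that PS19 Zbp1+/- lay below WT by a ratio of 0.613 (0.562 to 0.669). Ctso followed the same order at 6.64, 8.49 and 5.08. Ctsf was the exception among the 9 genes of this class, with near-level values of 35.4, 32.4 and 30.3. The class median was 0.61 for PS19 minus WT and -1.02 for PS19 Zbp1+/- minus PS19, and without Ctss and Ctsz it was 0.54 and -0.90.

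Among the other proteases Ctsd differed most. It encodes cathepsin D, the main aspartic protease of the lysosome, whose loss causes a neuronal ceroid lipofuscinosis. Its values were 120, 232 and 103 (chromosome 7, 142375911 to 142388038). The PS19 to WT ratio was 1.93 (1.87 to 2) and the PS19 Zbp1+/- to PS19 ratio 0.442 (0.425 to 0.459). Ctsd rests on 3814 reads or more in each library. Ctsa, the protective protein that stabilises β-galactosidase and neuraminidase, had 21.4, 32.5 and 19.9, a difference of 0.58 just inside the 1.5-fold limit. Tpp1, a tripeptidyl peptidase, had 15.8, 20.6 and 16.1, with PS19 Zbp1+/- level with WT as deposited.

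Glycosidases, which strip sugars from glycoproteins, glycolipids and glycosaminoglycans, differed by smaller steps, and 1 of them ran the other way. Man2b1, the lysosomal α-mannosidase, had FPKM values of 7.51, 14.8 and 9.23, a PS19 to WT ratio of 1.97 (1.83 to 2.13). Naglu, an enzyme of heparan sulfate breakdown, had 4.95, 8.31 and 5.56. Hexa, the α-subunit of β-hexosaminidase, had 31.2, 45 and 31.6. As deposited, WT and PS19 Zbp1+/- were thus level, with a ratio of 1.01 (0.930 to 1.11). Gusb, Manba and Idua had ratios of 1.41, 1.46 and 1.52 for PS19 over WT, while the intervals of Galc (0.915 to 1.14), Glb1 (0.948 to 1.23) and Gla (0.726 to 1.07) spanned 1. The class median was 0.40 for PS19 minus WT, with 0 of 10 genes at least 2-fold different.

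Gaa, the acid α-glucosidase that breaks down glycogen (chromosome 11, 119267887 to 119285454), had the largest difference upward of any member from PS19 to PS19 Zbp1+/- before correction for GC content. It stood at 101, 92.2 and 173, and the ratio of PS19 Zbp1+/- to PS19 was 1.88 (1.83 to 1.94). Gaa is GC-rich at 59.5% GC. After subtraction of the median of genes of like GC content and length the difference was 0.57 in place of 0.90, under the 1.5-fold limit. Smpd1, the acid sphingomyelinase, had the same order at 34.8, 29.3 and 47.8, with a GC content of 55.7% and a difference of 0.69 before and 0.61 after that correction, when it exceeded that of Gaa.

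Sulfatases, which remove sulfate groups from glycosaminoglycans and sulfolipids, were not lower in PS19 Zbp1+/- than in PS19 as a class. Arsb, the arylsulfatase that acts on dermatan and chondroitin sulfate, had FPKM values of 6.16, 9.41 and 12.1, a ratio of 1.96 over WT (1.78 to 2.16), the largest of any member in that comparison. Sgsh, the heparan sulfamidase, had 1.40, 2.36 and 2.72 from 107, 180 and 190 reads. Arsa, which degrades sulfatide of myelin, had 9.25, 12 and 11.8, so PS19 and PS19 Zbp1+/- were level and both above WT. Ids, the iduronate sulfatase, was lowest in PS19 at 96.3, 77 and 101, and it lies on the X chromosome. The median of these 4 genes was 0.41 for PS19 minus WT and 0.24 for PS19 Zbp1+/- minus PS19, whereas each of the other classes had a negative median in the second comparison. The second sulfatase median was 0.0046 under TPM scaling, in which every library is brought to the same FPKM sum and where the median of all genes was -0.21.

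Among lipid hydrolases Asah1, Lipa and Ppt1 were a little higher in PS19 than in WT, with ratios of 1.18 (1.08 to 1.28), 1.16 (1.02 to 1.32) and 1.21 (1.13 to 1.30), and Smpd1 was lower, at 0.842 (0.789 to 0.899). Asah1, the acid ceramidase, had FPKM values of 16.7, 19.6 and 10.1, and the ratio of PS19 Zbp1+/- over WT was 0.608 (0.546 to 0.676). Ppt1, the palmitoyl-protein thioesterase, had 23.7, 28.8 and 19.98, and Lipa, the acid lipase for cholesteryl esters, had 8.49, 9.84 and 7.02. None of the 4 differed by 1.5-fold between PS19 and WT.

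Of the soluble cofactors Psap was level between WT and PS19, and Grn and Npc2 were higher in PS19. Psap, the precursor of the saposins that present sphingolipids to hydrolases (chromosome 10, 60277627 to 60302597), was the most abundant member in every library, at 686, 692 and 587. From 32463 and 32846 reads its PS19 to WT ratio was 1.01 (0.994 to 1.03). Grn, encoding progranulin, which is bound by prosaposin on its way to the lysosome, had 19.9, 39.99 and 23.2. Its PS19 to WT ratio was 2.01 (1.87 to 2.16). Grn overlaps Fam171a2 on the opposite strand, which had 45.7, 28.8 and 87.5 and so ran in the other direction. Npc2, the soluble cholesterol carrier, had 13.2, 20.2 and 9.13, below WT in PS19 Zbp1+/- at a ratio of 0.690 (0.631 to 0.756).

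Among the 12 membrane proteins the myeloid-enriched members stood out. Cd68, a heavily glycosylated protein of macrophage lysosomes (chromosome 11, 69664213 to 69666153), stood at 4.89, 20.2 and 6.48, from 106, 439 and 129 reads. Laptm5, a transmembrane protein of haematopoietic cells (chromosome 4, 130913125 to 130936141), had 6.47, 27 and 11.3. The PS19 to WT ratio was 4.13 for Cd68 (3.34 to 5.16) and 4.17 for Laptm5 (3.75 to 4.65). In PS19 Zbp1+/- Laptm5 was above WT at a ratio of 1.75 (1.55 to 1.98) and Cd68 at 1.33 (1.02 to 1.73), while Ctss was below WT at 0.703 (0.630 to 0.784) and Ctsz at 0.848 (0.753 to 0.954). The relatives Laptm4a and Laptm4b, which are broadly expressed, were level between WT and PS19, at 136 and 134 for Laptm4a and 57 and 57 for Laptm4b.

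The general lysosomal membrane markers gave smaller differences. Lamp1 (chromosome 8, 13159161 to 13175338) had FPKM values of 102, 141 and 98.1, with a PS19 to WT ratio of 1.39 (1.34 to 1.44). Lamp2, needed for fusion with autophagosomes, had the same ratio to WT in PS19, 1.39 (1.31 to 1.47), from 11.3 and 15.7. In PS19 Zbp1+/- the 2 parted: Lamp1 was near WT at a ratio of 0.963 with an upper bound of 1 (lower bound 0.924), and Lamp2 was at 6.27, a ratio of 0.553 (0.511 to 0.599). Lamp2 is X-linked and 38.7% GC, among the genes lowest in GC, and its difference from WT was -0.76 before and -0.62 after correction for GC content and length.

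Cd63, a tetraspanin of late endosomes and exosomes, had FPKM values of 20.1, 32 and 10.2. Its ratio over WT in PS19 Zbp1+/- was 0.508 (0.460 to 0.561), and on the log2 scale, at -0.91, it was the member furthest below WT there after Ctsc. Npc1, the membrane partner of Npc2 in cholesterol export, had 5.83, 9.43 and 6.36, and Scarb2, the receptor that carries glucocerebrosidase to lysosomes, had 20.9, 30.6 and 18.7. Mcoln1, a lysosomal calcium channel, was level between WT and PS19 and higher in PS19 Zbp1+/-, at 9.11, 9.29 and 12.1. Tmem106b, a regulator of lysosome size and trafficking linked to frontotemporal dementia, was at 29.7, 30.3 and 25.1. Cln3, mutated in juvenile ceroid lipofuscinosis, had 2.95, 3.53 and 2.12.

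**Figure D2:**
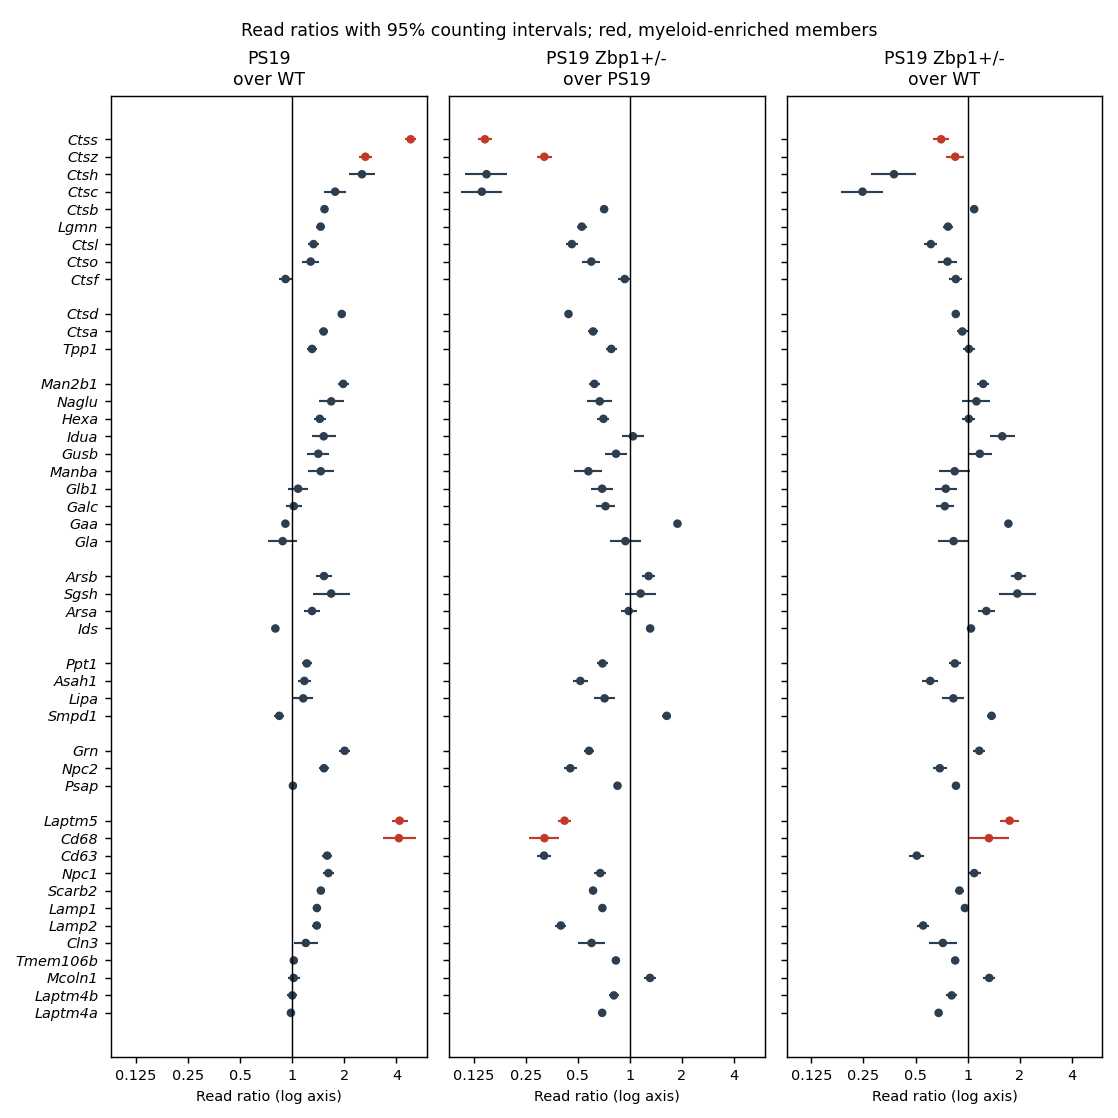
Read ratio of each member in the 3 comparisons on a log axis, per implied library size, with exact 95% intervals for counting error and a line at 1. The red myeloid-enriched members lie between 2.65 and 4.84 for PS19 over WT, right of every black point, and in the right panel they fall on both sides of 1.

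The myeloid-enriched members differed more than the rest in both comparisons with PS19. Their median for PS19 minus WT was 1.88, with a range of 1.37 to 2.24, and that of the other 41 was 0.38, with a range of -0.32 to 1.05. The ranges did not overlap, and the 4 had been named as myeloid-enriched with earlier results of these data known. For PS19 Zbp1+/- minus PS19 the medians were -1.55 and -0.50, and Ctsh at -1.88, Ctsc at -1.81, Cd63 at -1.56 and Lamp2 at -1.20 lay within the range of the 4. Against WT the PS19 Zbp1+/- library had medians of 0.06 and -0.21, and the first was -0.084 under TPM scaling. Of the 41 broadly expressed members 35 lay above 0 in PS19 minus WT, or 85.4%, against 46.3% of all tested genes. Adding Ctsc, Ctsh and Lgmn to the myeloid group lowered its PS19 minus WT median to 1.37, with the remaining 38 at 0.37. The ranges then overlapped, since the 7 reached down to 0.54 and the 38 up to 0.97.

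**Figure D3:**
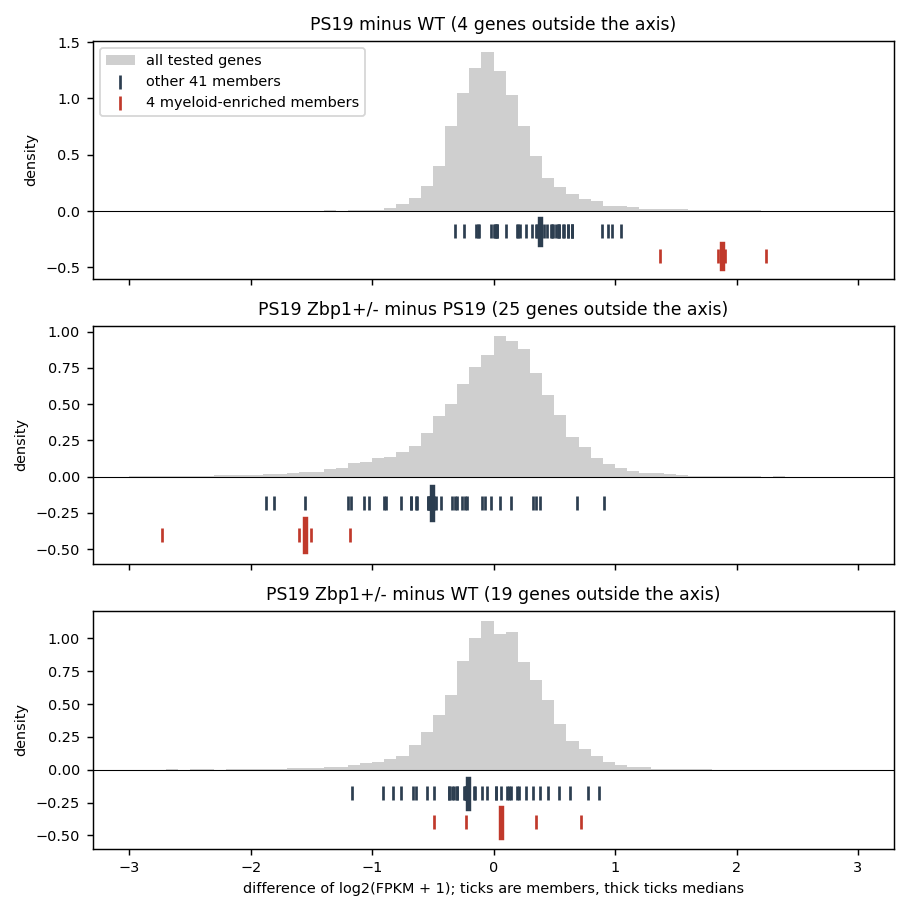
Differences of log2(FPKM + 1) over all tested genes (grey histogram) with the other 41 members (dark ticks) and the 4 myeloid-enriched members (red ticks) below, and thick ticks at the medians. The red ticks lie at 1.37 to 2.24 in the top panel, right of every dark tick, and on both sides of 0 in the bottom panel.

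Marker sums of neurons, endothelium and choroid plexus were not highest in PS19, and those of the other cell types listed here were. In bulk RNA more cells of a type and more RNA per cell cannot be told apart. The 12 microglia markers had summed FPKM values of 165, 606 and 171, and 8 of them passed the 2-fold limit upward in PS19. The exceptions at the low end were P2ry12, a purinergic receptor of homeostatic microglia, at 11.2, 10.1 and 8.66, and Tmem119 at 11, 12.4 and 10.2. Most of each microglia sum came from C1qa (48, 204.7 and 39.4), C1qb (35.1, 153.6 and 39.7) and C1qc (17.4, 75 and 18.2). The 7 astrocyte markers summed to 357, 1178 and 390.5, of which Gfap alone gave 98.4, 767.9 and 112.5. Of these 7, 2 passed the 2-fold limit upward in PS19, and their median difference from WT was 0.58. Oligodendrocyte markers summed to 824.5, 1487 and 523. Neuron markers summed to 871, 760 and 1130. Choroid plexus markers summed to 3400.2, 2162 and 25.4, with all 7 of them past the 2-fold limit downward from PS19 to PS19 Zbp1+/-. Border macrophage and monocyte markers summed to 2.61, 3.51 and 0.217, with 5 of 8 at 0 reads in PS19 Zbp1+/-. The 6 endothelial markers summed to 49.1, 45.8 and 57.2, and the 6 T cell markers to 0.417, 1.56 and 1.35. In PS19 Zbp1+/- all of the T cell sum was Trac, from 20 reads, and the other 5 T cell markers were at 0 reads. The part of these marker shifts in the lysosomal differences was not tested.

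Set against these 12 microglia markers, Cd68 and Laptm5 were at similar shares in WT and PS19. In PS19 Ctss had a higher share, and Ctsz and the other 41 members had lower ones. Ctss amounted to 21.9%, 28.9% and 14.9% of the summed marker FPKM in WT, PS19 and PS19 Zbp1+/-. Cd68 amounted to 2.95%, 3.34% and 3.79%, Laptm5 to 3.91%, 4.46% and 6.62%, and Ctsz to 15.7%, 11.4% and 12.9%. From WT to PS19 the factors between these shares were 0.723 (Ctsz) to 1.32 (Ctss). For the other 41 members the factor had a median of 0.379 and a range of 0.218 to 0.691, below 1 in all 41. From PS19 to PS19 Zbp1+/- the factor was 0.515 for Ctss but 1.13 for Ctsz, 1.14 for Cd68 and 1.48 for Laptm5. The median of the other 41 was 2.46, and only Ctsc at 0.495 and Ctsh at 0.526 were below 1 among them.

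**Figure D4:**
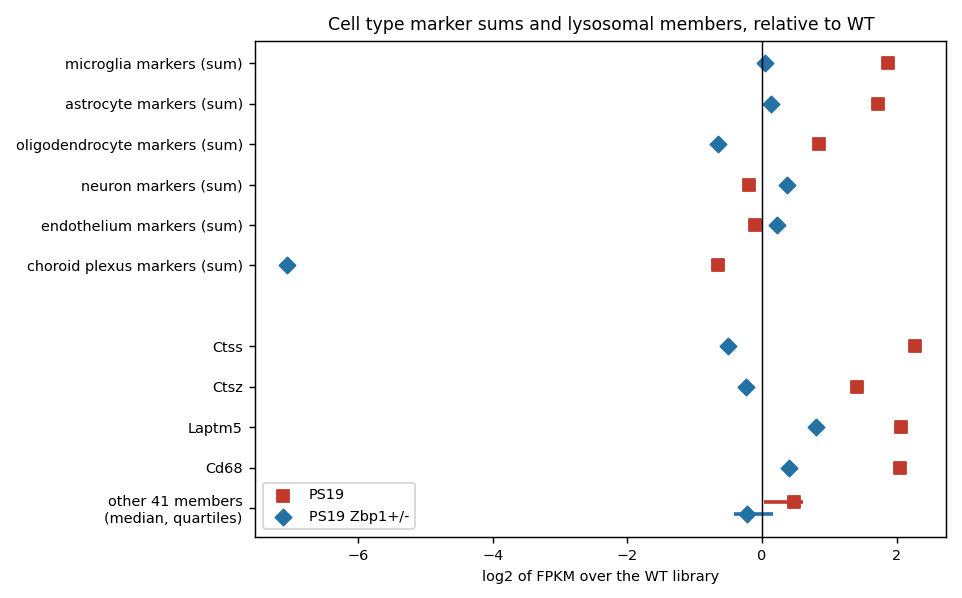
Summed FPKM of cell type marker lists, the 4 myeloid-enriched members, and the median and quartiles of the other 41 members, each as log2 of the value over WT, in PS19 (red squares) and PS19 Zbp1+/- (blue diamonds). The microglia and astrocyte marker sums and the 4 members lie far right of 0 in PS19, and choroid plexus markers lie far left of 0 in PS19 Zbp1+/-. Most of the astrocyte sum in PS19 is Gfap, and most of the microglia sum is C1qa, C1qb and C1qc.

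Promoters of the members were searched for known elements. The transcription factors TFEB and TFE3 bind the CLEAR element, built around the letters CACGTG, upstream of many lysosomal genes. The members were chosen as lysosomal genes, so a raised share of these letters among them was likely beforehand and is no separate support. RefSeq promoters of build GRCm38.p6 were matched for 40 of the 45 members, the others being Npc1, Ctsh, Asah1, Laptm4b and Ctsb, and the 250 bases before each start were searched on both strands. CACGTG occurred in 14 of the 40, or 35%, against 6.86% of 27025 genes with a promoter entry and 10.03% of 9964 tested protein-coding genes. The longer TCACGTGA, which contains it, occurred in 5, or 12.5%, against 0.907% and 1.71%. GAGGAAGT, a form of the site of the myeloid factor PU.1, occurred in 2, Ctsc and Gla, or 5%, against 2.79% and 2.66%. Of the other lysosomal pathway genes 11 of 62, or 17.7%, held CACGTG and 9.68% held TCACGTGA. None of the 4 myeloid-enriched members held any of these 3 strings in its window. The 14 members with CACGTG had a median difference of 0.37 for PS19 minus WT and the 26 without it 0.46, and -0.49 and -0.53 for PS19 Zbp1+/- minus PS19. A match describes letters in a window and is not a measured binding site.

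Stretches of 4 windows are shown as contrasts: Lamp1 with 4 copies of CACGTG close to the start, Gaa with a single copy and a higher level in PS19 Zbp1+/- than in PS19, Ctsc with the PU.1 string, and Ctss, the member that differed most between PS19 and WT. They are written 5′ to 3′ along the gene's strand, free of annotated exons, with matches in capitals. Capitals mark CACGTG in Lamp1 and Gaa, the reverse complement of GAGGAAGT in Ctsc, and in Ctss a match to the core of the interferon-stimulated response element, GAAA, any pair of bases, GAAA. The last motif was searched after the Ctss window had been read. It starts 21 bases before the Ctss start, and 3.46% of all genes with a promoter entry hold it, as does Lamp1 further upstream. The stretches are chr8:13159061-13159160, chr11:119267763-119267886, chr7:88277925-88278084 and chr3:95526626-95526785, all on the plus strand.
Lamp1: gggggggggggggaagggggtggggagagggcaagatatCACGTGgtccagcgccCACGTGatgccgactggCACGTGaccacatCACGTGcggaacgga
Gaa: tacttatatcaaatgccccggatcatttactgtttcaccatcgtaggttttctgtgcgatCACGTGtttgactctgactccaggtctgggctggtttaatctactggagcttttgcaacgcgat
Ctsc: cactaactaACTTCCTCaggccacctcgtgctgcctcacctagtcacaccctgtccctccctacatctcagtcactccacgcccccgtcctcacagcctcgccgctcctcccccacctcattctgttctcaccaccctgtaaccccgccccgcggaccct
Ctss: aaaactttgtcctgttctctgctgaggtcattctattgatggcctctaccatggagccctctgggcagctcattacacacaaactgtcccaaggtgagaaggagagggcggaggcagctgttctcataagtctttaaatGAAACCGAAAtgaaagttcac

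Pooled, the other genes of the lysosomal pathway had medians near 0, while their classes differed in direction. Between PS19 and WT the vacuolar ATPase genes had a median of -0.37, the other hydrolases and membrane proteins 0.20 and the cathepsin inhibitors 0.31. Of 89 listed genes, 81 were tested between PS19 and WT, with a median of -0.01. The 2-fold limit was passed upward by 2 (background 2.2%) and downward by 1 (0.291%). From PS19 to PS19 Zbp1+/- 5 of 81 passed it downward (5.16%) and 0 upward (2%). From WT to PS19 Zbp1+/- 2 of 80 passed it downward (2.28%) and 0 upward (1.07%). Cst7, an inhibitor of cysteine cathepsins induced in activated microglia, stood at 0.705, 14.5 and 0, from 12, 248 and 0 reads. The upper 95% bound that 0 reads allow for the PS19 Zbp1+/- to PS19 ratio of Cst7 was 0.0164. Lower in PS19 Zbp1+/- than in both other libraries were Serpinb1a, an inhibitor of neutrophil proteases, at 3.88, 5.05 and 1.48, and Ctsk, the cathepsin of osteoclasts, at 2.41, 1.57 and 0.585 from 63, 41 and 14 reads. Cst3, the abundant general cystatin, had 886, 1197 and 742.

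The proton pump ran against the hydrolases. Of 19 vacuolar ATPase genes tested, 16 lay below 0 in PS19 minus WT, with a median of -0.37, while 46.3% of all tested genes lay above 0. The median was -0.24 under TPM scaling and -0.20 after correction for GC content and length. For PS19 Zbp1+/- minus PS19 the median was 0.26, with 14 genes above 0, where all genes had 0.04 and 53.7%. Under TPM scaling the pump median was -0.023, and that of all genes -0.21. Atp6v1g2, a neuronal subunit, had FPKM values of 172, 115 and 159. Tcirg1, the subunit of the pump of osteoclasts and macrophages, was among the 3 genes above 0, at 4.03, 8.62 and 3.01. Atp6v0c, at 45, 21.4 and 4.24, is known to have near-identical pseudogenes, so its reads may be split between copies. The summed neuron markers were also lowest in PS19, though Gad1 and Gad2 were not (47.9, 47.9 and 46.1 for Gad1, and 27.1, 35.4 and 29 for Gad2), and their part in the values of the pump genes was not tested.

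Between PS19 and WT, sorting genes and regulators had medians near that of all genes. The 14 tested genes of mannose 6-phosphate sorting had a median of -0.03 for PS19 minus WT with 0 at least 1.5-fold different, and 0.17 and 0.18 for PS19 Zbp1+/- minus PS19 and minus WT, where all genes had 0.04 and 0.01. Under TPM scaling the first of these was -0.098, and that of all genes -0.21. The receptor Igf2r had 4.95, 5.64 and 6.18. The 14 regulators had a median of -0.03 for PS19 minus WT, and 0.015 and -0.11 in the comparisons of PS19 Zbp1+/- with PS19 and with WT. Tfeb had FPKM values of 2.33, 3.17 and 1.23, with a PS19 Zbp1+/- to PS19 ratio of 0.386 (0.308 to 0.482). Its relative Tfe3 was near level at 4.25, 4.92 and 4.84. Mtor, the kinase that restrains TFEB, had 10.5, 12 and 18.1. The 29 other hydrolases and membrane proteins had a median of 0.20 for PS19 minus WT and -0.27 for PS19 Zbp1+/- minus PS19, the same directions as the members with smaller size.

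Overlapping genes limit some values. Of the members, 11 overlap another gene with an FPKM of at least 1 in some library, 10 of them on the opposite strand, among them Ctsb, Ctsz, Grn, Ctsa, Ppt1 and Npc1. The strand setting of the counting is not given in the sources used here, so reads of such a pair may have been lost or shared.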

How the data were processed

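Hippocampal RNA was sequenced in 3 libraries, 1 per genotype, after TRIzol extraction and NEB Next Ultra library construction, per the labels' protocols. The submitters' processing notes name Trim Galore 0.6.5, STAR 2.5.3a, featureCounts 2.0.4 and the build mm39. Gene positions in the table equal GENCODE M21 (GRCm38) for 98.3% of 54409 shared IDs and are printed as GRCm38. The authors deposited FPKM values for each gene, and the file name gives the unit. Whole reads were recovered because FPKM times gene length is a whole multiple of 1 step per library (within 0.01 reads for 100% of values).

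The difference of log2(FPKM + 1), with a pseudocount of 1, was taken over protein-coding genes that reached an FPKM of 1 in one or both libraries. Thresholds were 2-fold and 1.5-fold. Read ratios used exact (Clopper-Pearson) 95% intervals. No test across genes was run. The members and lists were chosen with earlier results of these data known. Genes named are the 4 myeloid-enriched members, every member past 1.5-fold in a comparison, the most abundant of each role, and pathway and marker genes with the largest differences; the other members are given to account for all 45, and Igf2r, Tfeb, Tfe3, Cst3 and Atp6v1g2 were chosen after their values were seen. Results for 2 of the pathway genes that the rule picks are not reported here. Alternatives were a pseudocount of 0.1, TPM scaling, scaling by total reads, no filter, a mean FPKM of at least 5, a 1.5-fold threshold, a mean in place of the median and 7 myeloid members; a correction in 10 bins of GC content and 5 of length was added after seeing the data. The steps were tested on simulated data. The scripts ran in Python 3.11.15 with scipy 1.17.1 and numpy 2.4.6, tables were handled in pandas 2.3.3, and plots were drawn in matplotlib 3.10.9.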

Additional observations from a re-analysis of the deposited data

How the results depend on the processing

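With 1 library per genotype, no replicate could be left out and depth limits only counting error. No paired analysis was possible because each genotype has 1 library and the labels carry no replicate number. Scaling shifted all genes: for PS19 Zbp1+/- minus PS19 the median of all genes was -0.21 under TPM and -0.12 under total reads, and for PS19 Zbp1+/- minus WT -0.13 under both. Under TPM the members at least 2-fold higher in PS19 than in WT numbered 8, the median of PS19 Zbp1+/- minus PS19 was -0.77 for all members and -0.75 for the other 41, and that of PS19 Zbp1+/- minus WT was -0.33 for both. Under total reads these were -0.67 for the other 41 in the first and -0.33 for both sets in the second. The small median of the 4 myeloid-enriched members in PS19 Zbp1+/- minus WT turned to -0.084 under TPM, -0.082 under total reads and -0.37 with 7 myeloid members, whose median in PS19 minus WT was 1.37. Members past the 2-fold limit downward from WT to PS19 Zbp1+/- numbered 2 under TPM, total reads and a pseudocount of 0.1, and 0 at a mean FPKM of at least 5. A 1.5-fold threshold gave 13 higher in PS19 than in WT, 18 lower and 2 higher in PS19 Zbp1+/- than in PS19, and 6 lower and 4 higher than in WT. Under TPM and total reads the first count was 21 and 15, the second split 30 and 1, and 29 and 1, and the third 9 and 2 under both. All tested genes tilted with it: in the third comparison 48.5% of those past 1.5-fold were higher as deposited, 25.7% under TPM and 26.0% under total reads, against 40% and then 18.2% of the members. The sign of single members held under a pseudocount of 0.1, both scalings and the GC correction for 42 of 45 in PS19 minus WT, 43 in PS19 Zbp1+/- minus PS19 and 38 in PS19 Zbp1+/- minus WT, and those that turned differed by at most 0.27. Scaling by total reads puts the recovered reads in place of the implied library size, for PS19 Zbp1+/- 17109734 in place of 15826984. Why they differ was not tested, nor was the cause of the shifts under TPM.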
